A study of Mus musculus with 3 samples.

Results

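The killer cell lectin-like receptor genes were followed in single-cell RNA sequencing of mouse liver. The group holds every gene of the count tables whose symbol begins with Klr, then 1 of the letters a, b, c, d, e, f, g, h, i or k, then a digit, pseudogenes included. This rule found 31 genes among 55357. It covers 14 Ly49 genes (Klra), 6 NKR-P1 genes (Klrb1), 3 NKG2 genes (Klrc), CD94 (Klrd1), NKG2D (Klrk1), 2 Klrg genes and 4 genes of the Klre, Klrh and Klri kind. In the cells kept, 30 of the 31 had at least 1 unique molecular identifier (UMI, 1 per captured RNA molecule), Klrb1-ps1 had none, and 5 had between 1 and 20. All members together had 33201 UMIs, of which 77.3% lay in NK-like, ILC1-like and T-like cells.

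Hepatocytes and nonparenchymal cells were mixed in equal parts and sequenced as 3 libraries, 1 per condition, each from 2 male wild-type C57BL/6 mice that were 8 weeks old at the start. CON mice were untreated. HFD mice spent 4 months on a diet in which fat supplied 60% of the energy. CCL4 mice had chow for 3 months and then 0.1 mL of 10% carbon tetrachloride, a liver toxin, into the peritoneum 2 times per week for 4 weeks. Since each condition had a single library, samples could not be tested against each other, and a condition cannot be told apart from its library or its pool of mice. The libraries held 11245 to 12984 barcodes with a median of 2173 to 2939 UMIs, 45 barcodes were left out, and 36 to 52 barcodes were shared by each pair of libraries. Levels are UMIs summed over the cells of a class, scaled to counts per 1e+06 UMIs of that class (CPM), with exact Poisson 95% intervals. Every interval here covers counting error only.

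These receptors sit on natural killer (NK) cells and on some T cells and read the state of other cells through their ligands. Inhibitory Ly49 receptors and the pair of CD94 with NKG2A bind MHC class I proteins and restrain the cell, whereas activating Ly49 receptors and NKG2D, which binds stress-induced ligands, signal through adaptor proteins. Each NK cell expresses its own mixture of Ly49 genes. The liver is rich in NK cells and in group 1 innate lymphoid cells (ILC1), which resemble NK cells and reside in the tissue.

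RefSeq promoter windows of GRCm38.p6, from 250 bases before to 50 bases after a start site, were matched by symbol for 24 of the 31 members, among them 11 Ly49 genes. They are shown because Ly49 genes are relatives of each other, which the start regions make visible. No 12-base word was held by more Ly49 windows than AAGCAATTTCCT, in 7 of the 11 (Klra3, Klra4, Klra5, Klra6, Klra8, Klra9 and Klra17). Other words were held by as many, and the leftmost was taken. On both strands, 10 of 27025 genes with a window (0.0370%) held it. The word was picked because it was shared, so its number of Ly49 holders is a description. The stretches of 60 bases around it lie on the minus strand, at chr6:130067312-130067371 for Klra4, chr6:130129940-130129999 for Klra8, chr6:130193112-130193171 for Klra9, chr6:130337607-130337666 for Klra3 and chr6:129876708-129876767 for Klra17. Capitals mark the word.
Klra4: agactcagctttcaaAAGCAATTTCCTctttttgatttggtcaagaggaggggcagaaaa
Klra8: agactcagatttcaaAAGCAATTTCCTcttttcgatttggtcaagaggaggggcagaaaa
Klra9: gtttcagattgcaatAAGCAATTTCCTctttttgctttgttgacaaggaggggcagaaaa
Klra3: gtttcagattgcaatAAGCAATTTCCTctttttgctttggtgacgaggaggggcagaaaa
Klra17: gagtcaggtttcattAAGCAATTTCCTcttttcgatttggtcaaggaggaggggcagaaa
Klra4 and Klra8, which encode the activating receptors Ly49D and Ly49H, shared 58 of the 60 bases (96.7%). Klra9 and Klra3, which encode the inhibitory receptors Ly49I and Ly49C, also shared 58. Klra4 and Klra9 shared 42 (70.0%), and Klra17 and Klra4 shared 39 (65.0%). Bases were compared position by position without gaps. The Klra17 stretch carries an extra base after the word, which moves its last bases out of step with those of Klra4. Its count is lowered by this and does not rank it against Klra9. The windows of Klrc2 and Klrc3 matched at 95.8% of 260 bases. These are start regions, not the 3′ ends that were counted. How alike the counted transcripts are, and how many reads went to the wrong member, was not tested, so values of single members of these families are given with that limit.

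Classes were named from marker genes after clustering without any Klr gene. NK-like cells numbered 553 in CON, 116 in HFD and 375 in CCL4. In CON, HFD and CCL4, their Ncr1 was at 374, 301 and 134 CPM and their Eomes at 433, 163 and 119.8 CPM. Cd3e of T cells was at 20.7, 21.7 and 15.3 CPM. Ncr1 and Eomes were on the list that named the class, so their presence follows in part from the naming. Ncr1 did not set it apart from ILC1-like cells, which had 494, 242 and 198 CPM. Eomes was at 30.3, 18.6 and 13.9 CPM in ILC1-like and 132, 47.4 and 39.4 CPM in T-like cells, but at 490.1 CPM in T-like sub-cluster 4 of CON. ILC1-like cells numbered 430, 220 and 136, and T-like cells 1659, 1861 and 1702. Cd3e was at 11.9, 65.0 and 101 CPM in ILC1-like cells and at 616, 319 and 279 CPM in T-like cells. By Cd3e, the ILC1-like classes of HFD and CCL4 thus carried some T cell RNA. The 10 T cell markers together were at 1343, 927 and 961 CPM in ILC1-like cells and at 746, 435 and 292 CPM in NK-like cells. Higher T cell markers in ILC1-like than NK-like cells were therefore not particular to HFD and CCL4. The naming rule was revised after the data had been seen, with Klr levels of sub-clusters in view, and the HFD class depends on it. T-like sub-clusters needed 5 raised T cell markers, lowered from 7 after the results of the alternatives were known. With 7 the classes were the same, but 5 of 8 alternatives combined with it gave an HFD NK-like class of 340 to 523 cells, and the HFD to CON ratio of all members then ranged from 0.195 to 0.265.

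All members together were at 5743 CPM (5616 to 5872) in NK-like cells of CON, 2401 CPM (2222 to 2591) in HFD and 1568 CPM (1482 to 1659) in CCL4. T-like cells were lower in each library, at 1389.6, 502 and 273 CPM. The ratio of NK-like to T-like cells was 4.13 (4.00 to 4.27) in CON, 4.79 (4.38 to 5.22) in HFD and 5.75 (5.29 to 6.26) in CCL4. ILC1-like cells were close to NK-like cells, at 4844, 1719 and 1822 CPM. B cell-like cells had 299.7, 85.2 and 53.3 CPM and hepatocyte-like cells 10.9, 6.10 and 4.59 CPM. Among hepatocyte-like cells, which should lack these receptors, 4.17%, 1.53% and 1.15% held a UMI of any member at median depths of 3801, 2292 and 2287 UMIs, against 99.8%, 96.6% and 93.9% of NK-like cells at 2264, 2276 and 1942 UMIs.

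**Figure D1:**
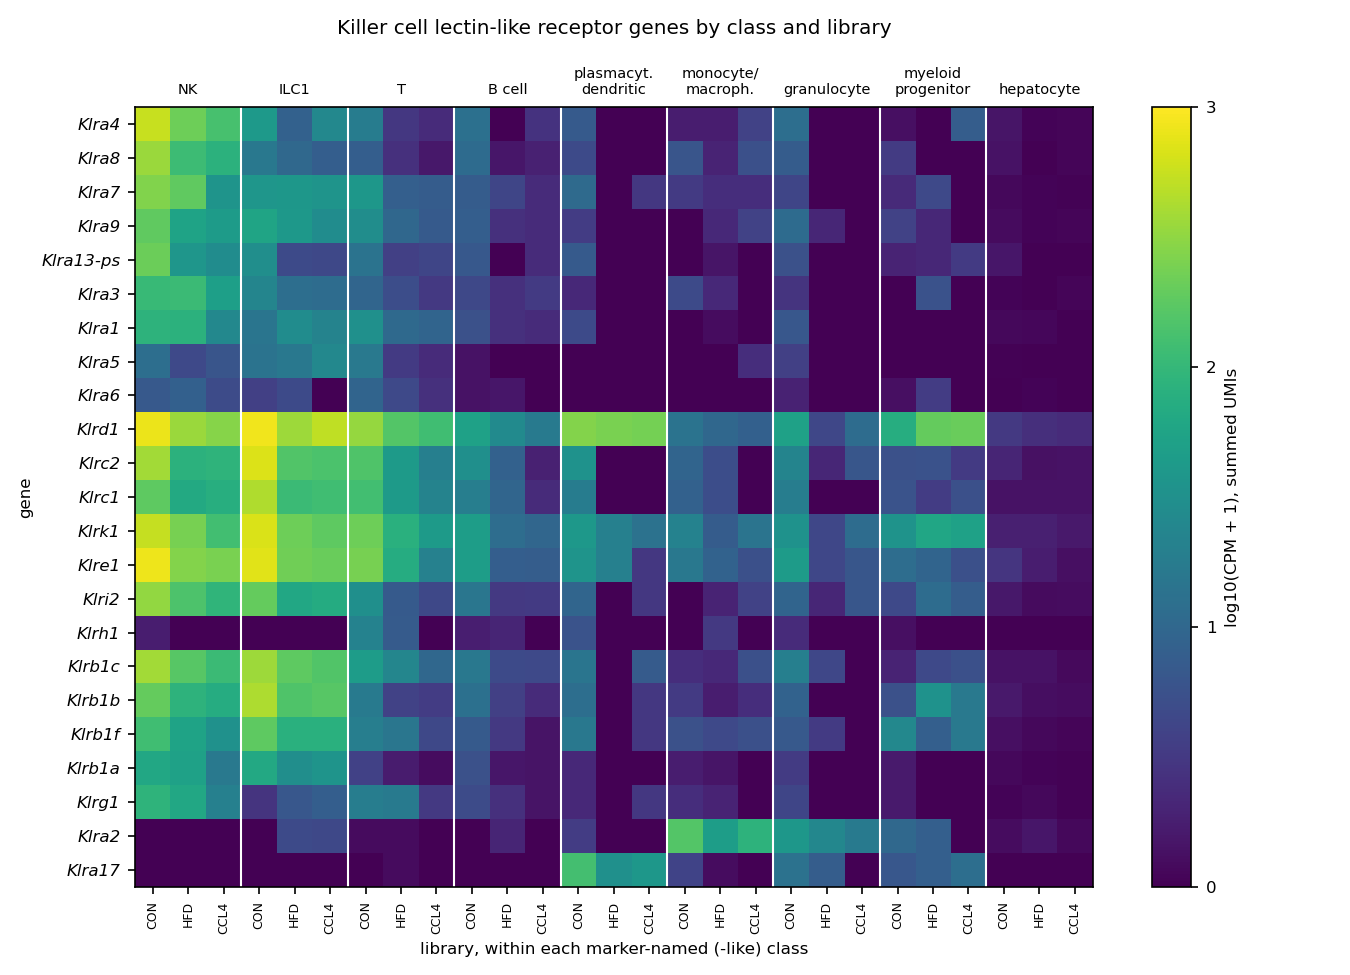
Level of 23 members (rows) in 9 marker-named classes, each split into the CON, HFD and CCL4 libraries (columns). Colour gives log10 of CPM plus 1 from summed UMIs. Most rows are brightest in NK-like and ILC1-like cells, Klra2 in monocyte/macrophage-like cells and Klra17 in plasmacytoid dendritic cell-like cells.

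Genes counted as past 2-fold had a ratio of CPM plus 5 of at least 2 or at most 1/2, among genes with at least 50 CPM in 1 of the groups. This filter let in members that were high in NK-like cells alone, whose direction the filter then set, so the counts for NK-like against T-like cells are a description. In CON, 17 of 18 members compared were higher in NK-like cells and 0 lower, where 4.76% of all 3738 genes were higher and 3.50% lower, but 13 of the 18 entered through NK-like cells alone. In HFD it was 15 of 17 (4.23% of all genes higher, 1.91% lower), with 14 entering through NK-like cells alone, and in CCL4 10 of 10 (1.90% and 2.15%), with 9. Of the members at 50 CPM or more in both classes, a limit added after the data were seen, 4 of 5 were higher and 0 lower in CON (2.34% and 1.20% of all genes), 3 of 3 were higher in HFD (1.56% and 0.274%) and 1 of 1 in CCL4 (0.647% and 0.431%). These were Klrd1 in every library, Klre1 and Klrk1 in CON and HFD, and Klrc2 in CON. Klrh1, Klra5 and Klra6, which were high in single T-like sub-clusters, were not compared. Klrc1, which encodes the inhibitory NKG2A, was the CON member within 2-fold, with 179.7 CPM in NK-like and 121 CPM in T-like cells.

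The activating Ly49 genes were low in T-like cells as a class, but higher in a cycling sub-cluster of CON that also had NK cell markers raised. Klra4 was at 559.9 CPM (521 to 601) in NK-like cells of CON, 217 CPM (166 to 279.7) in HFD and 133 CPM (108 to 161) in CCL4, and at 17.3, 2.03 and 1.36 CPM in T-like cells. Its NK-like to T-like ratio was 32.4 (25.6 to 41.7), 107 (52.7 to 245) and 97.5 (40.5 to 307). Klra8 was at 357, 112 and 84.1 CPM in NK-like cells and at 6.90, 1.58 and 0.544 CPM in T-like cells, the last resting on 2 UMIs. In T-like sub-cluster 7 of CON, led by the cell cycle genes Pclaf and Mki67, Klra4 reached 132 CPM (100.1 to 170.4) and Klra8 52.3 CPM (33.1 to 78.4). This sub-cluster had 9 of 12 NK cell markers and 9 of 10 T cell markers raised, Ncr1 at 75.0 CPM and a median of 5245 UMIs. Whether it held NK cells beside T cells was not tested. CD94 and NKG2D were shared more widely. Klrd1 stood at 815 CPM (768 to 865), 355 CPM (288 to 433) and 285 CPM (249 to 325) in NK-like cells and at 337, 155 and 118 CPM in T-like cells, ratios of 2.42, 2.29 and 2.43. Klrk1 had 543, 243 and 124 CPM in NK-like and 219, 79.9 and 42.7 CPM in T-like cells.

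Within each library, NK-like and ILC1-like cells differed by family. ILC1-like cells also had a higher sum of T cell markers than NK-like cells in every library, and more Cd3e in HFD and CCL4. Ly49 genes together were at 1799.7, 815 and 405 CPM in NK-like cells and at 230.4, 159.8 and 156 CPM in ILC1-like cells. The ratio was 7.81 (6.86 to 8.93) in CON, 5.10 (3.96 to 6.62) in HFD and 2.59 (1.89 to 3.63) in CCL4. The NKG2 genes, which pair with CD94, went the other way, with ratios of 0.499 (0.456 to 0.547), 0.563 (0.387 to 0.801) and 0.650 (0.485 to 0.876). Klrg1, an inhibitory receptor for cadherins, was at 87.3 CPM (72.2 to 105) in NK-like and 1.84 CPM (0.222 to 6.63, 2 UMIs) in ILC1-like cells of CON. It was at 61.6 and 5.58 CPM in HFD and at 19.1 and 6.94 CPM in CCL4, where the intervals overlapped.

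In CON, 8 of 18 members were past 2-fold higher and 2 lower in NK-like than ILC1-like cells, where 3.19% and 4.07% of all genes were. In HFD, 7 of 17 were higher and 0 lower, against 3.87% and 2.96%. In CCL4, 2 of 11 were higher and 2 lower, against 1.22% and 4.48%. Here too 7 of the 18 members in CON, 8 of the 17 in HFD and 2 of the 11 in CCL4 entered through NK-like cells alone, which set their direction. Of the members at 50 CPM or more in both classes, 1 of 11 was higher and 2 lower in CON (1.39% and 1.62% of all genes), 1 of 9 was higher and 0 lower in HFD (1.19% and 0.501%), and 0 of 8 were higher and 1 lower in CCL4 (0.307% and 1.14%). The lower members in CON were Klrb1b, with 197 CPM in NK-like and 421 CPM in ILC1-like cells, and Klrc1, with 179.7 and 442 CPM. Klrb1b encodes the inhibitory NKR-P1B. Klrb1c, the NK1.1 antigen used to mark NK cells, did not separate these classes, at 381 CPM (349 to 415) in NK-like and 359.9 CPM (325 to 397) in ILC1-like cells of CON. ILC1-like and T-like classes held clusters with more NK cell markers than markers of their own among their leading genes, so their values are set side by side and not compared between libraries.

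**Figure D2:**
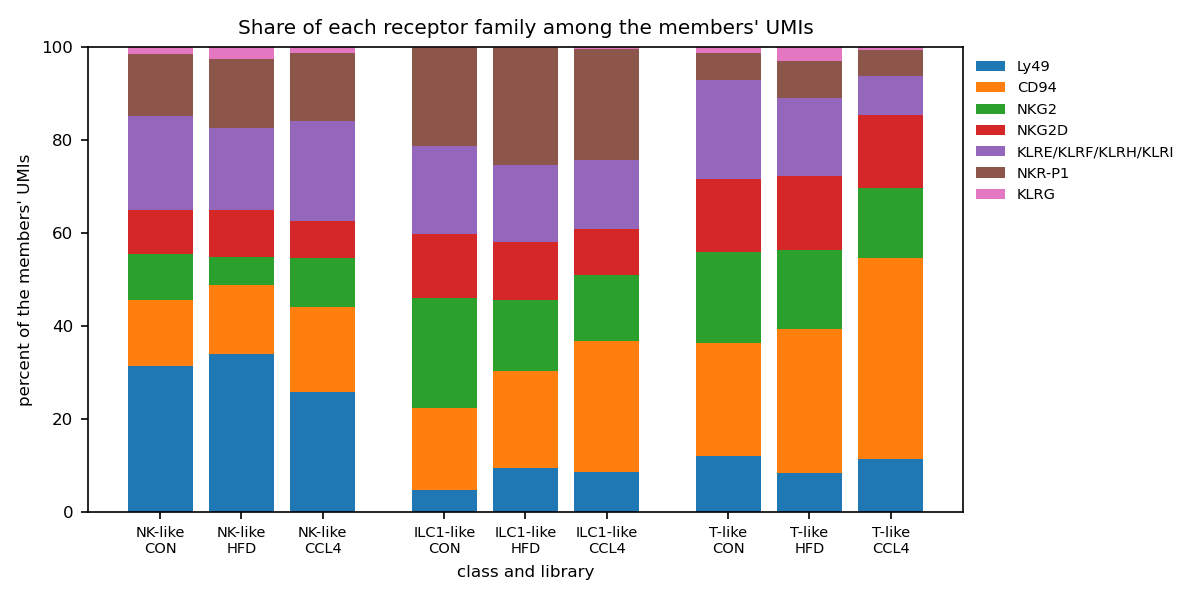
Share of each receptor family (colours) among the members' UMIs in NK-like, ILC1-like and T-like cells of each library, in percent. Ly49 genes took 31.3%, 33.9% and 25.8% in NK-like cells of CON, HFD and CCL4 and 4.76%, 9.30% and 8.57% in ILC1-like cells.

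Levels in NK-like cells were lower in both treated libraries than in CON when scaled to all UMIs. The ratio of all members together was 0.418 (0.386 to 0.453) for HFD and 0.273 (0.257 to 0.290) for CCL4. In HFD, 13 of 18 members were past 2-fold lower, 0 higher and 5 neither, where 20.7% of all 3978 genes were lower and 14.7% higher. In CCL4, 18 of 18 were lower and 0 higher, where 37.7% of all 3869 genes were lower and 16.6% higher. In CCL4, 8 of the 18 entered through CON alone, which set their direction, and in HFD 1 did. Of the members at 50 CPM or more in both libraries, 12 of 17 were lower and 0 higher in HFD (13.9% and 10.3% of all genes), and 10 of 10 were lower in CCL4 (24.2%, with 15.1% higher).

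Other measures moved with these ratios. Alb, the hepatocyte transcript for albumin, was at 4323 CPM in NK-like cells of CON, 17252 CPM in HFD and 39667 CPM in CCL4, and 10 hepatocyte markers summed to 17778, 72323 and 112436 CPM. The 12 NK cell markers that helped to name the class were at 29934, 16716 and 9826 CPM in all. Genes at least 2-fold higher in T-like than in hepatocyte-like cells held 47.4%, 29.0% and 19.7% of the NK-like UMIs. Scaled to those 2640 genes, a choice made after the data were seen, the ratio of all members was 0.683 for HFD and 0.657 for CCL4, with 3 and 2 of 18 members past 2-fold lower and 0 higher. Under that scaling 6.68% of 6886 genes were lower and 31.2% higher in HFD, and 4.20% of 7664 lower and 42.7% higher in CCL4. The median log2 ratio of all genes was -0.29 and -0.63 over all UMIs and 0.48 and 0.79 under that scaling, and the members' ratios are read relative to that shift. The part of hepatocyte RNA and of class makeup in the lower levels was not tested.

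**Figure D3:**
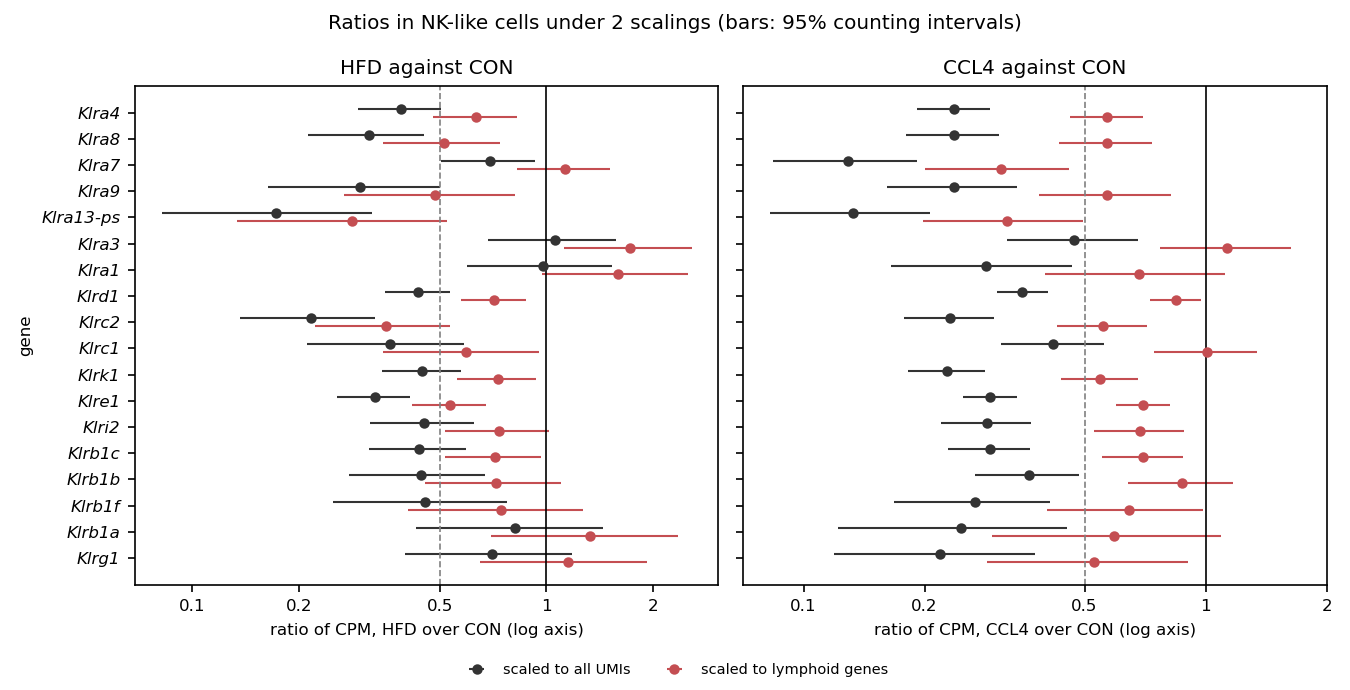
Ratio of CPM in NK-like cells, HFD over CON (left) and CCL4 over CON (right), on log axes, for the 18 members with at least 50 CPM in a library. Black points are scaled to all UMIs, red points to genes higher in T-like than hepatocyte-like cells, bars are 95% counting intervals and the dashed line marks 0.5. Every red point lies to the right of its black point, as the change of scale shifts all genes of a panel alike.

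Klra13-ps and Klra7 had the lowest CCL4 ratios of the 18 members. Klra13-ps, a pseudogene, was at 210.1 CPM (186 to 236) in CON, 36.2 CPM (17.4 to 66.6) in HFD and 28.0 CPM (17.6 to 42.4) in CCL4, ratios of 0.172 and 0.133. It was past 2-fold lower under the lymphoid scaling too, at 0.282 and 0.321. Klra7, the inhibitory Ly49G, was at 267 CPM (240.2 to 296), 185 CPM (138 to 243) and 34.4 CPM (22.7 to 50.1). Its ratio was 0.692 (0.505 to 0.929) for HFD and 0.129 (0.0837 to 0.191) for CCL4, and 1.13 and 0.310 under the lymphoid scaling, so the direction in HFD depended on the scaling.

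Klra3 and Klra1, which encode the inhibitory Ly49C and Ly49A, overlapped between HFD and CON when scaled to all UMIs. Klra3 was at 103 CPM (86.4 to 121), 109 CPM (73.3 to 155) and 48.4 CPM (34.3 to 66.5) in CON, HFD and CCL4, and its ratio for CCL4 was 0.471 over all UMIs and 1.13 under the lymphoid scaling. For HFD the ratio of Klra3 was 1.06 (0.687 to 1.58) over all UMIs and 1.73 (1.12 to 2.58) under the lymphoid scaling, where the interval lay above 1. Klra1 was at 85.1 CPM (70.2 to 102), 83.3 CPM (52.8 to 125) and 24.2 CPM (14.6 to 37.8). Klra9 was at 183 CPM (161 to 207), 54.3 CPM (30.4 to 89.6) and 43.3 CPM. Klra5 and Klra6 stayed at or below 11.1 and 7.24 CPM in NK-like cells.

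Receptors outside the Ly49 family were also lower over all UMIs. Klre1, which forms receptors with Klri1 or Klri2, was at 840.3 CPM (792 to 891) in CON, 275 CPM (217 to 344) in HFD and 245 CPM (211 to 282) in CCL4. Klri2 was at 321 CPM (292 to 353), 145 CPM (103 to 197) and 91.7 CPM (71.8 to 116). Klrc2, the activating NKG2C, was at 385 CPM (353 to 419.9), 83.3 CPM (52.8 to 125) and 89.2 CPM (69.5 to 113), and was past 2-fold lower in HFD under both scalings, at 0.216 and 0.353. Klrc1 was at 179.7 CPM (158 to 204), 65.2 CPM (38.6 to 103) and 75.2 CPM (57.2 to 97.0), and its CCL4 ratio was 0.418 over all UMIs and 1.01 under the lymphoid scaling.

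The NKR-P1 genes were lower over all UMIs as well. Klrb1c was at 381, 167 and 111 CPM in CON, HFD and CCL4, Klrb1b at 197, 86.9 and 71.4 CPM, and Klrb1f at 119, 54.3 and 31.9 CPM. Klrb1a was at 62.1 CPM (49.6 to 76.9), 50.7 CPM (27.7 to 85.1) and 15.3 CPM (7.90 to 26.7), so CON and HFD overlapped. Klrg1 gave the same order, with HFD overlapping CON. The direction in HFD turned with the scaling for both, as the ratio of Klrb1a was 0.816 over all UMIs and 1.33 under the lymphoid scaling, and that of Klrg1 0.705 over all UMIs and 1.15 under the lymphoid scaling. For Klra1 it was 0.979 over all UMIs and 1.60 under the lymphoid scaling.

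**Figure D4:**
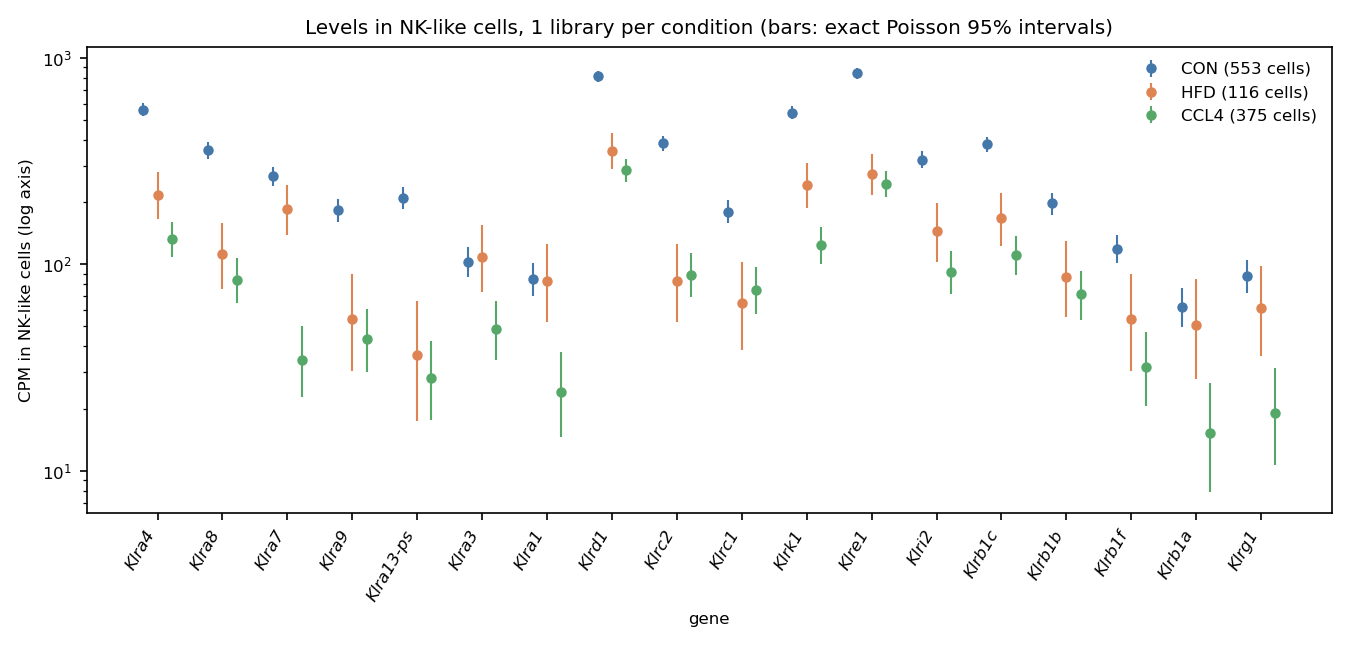
CPM in NK-like cells (log axis) for the 18 members with at least 50 CPM in a library, in CON (blue), HFD (orange) and CCL4 (green), scaled to all UMIs, with exact Poisson 95% intervals. CON lies above CCL4 for each gene, while Klra3 and Klra1 have nearly equal CON and HFD levels.

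Shares among the members' own UMIs do not depend on how a library is scaled. In NK-like cells, Klra7 made up 4.65% (4.19 to 5.14) of them in CON, 7.69% (5.78 to 9.99) in HFD and 2.19% (1.45 to 3.18) in CCL4. Klra3 made up 1.79% (1.51 to 2.11), 4.52% (3.07 to 6.40) and 3.09% (2.19 to 4.21). Klrc2 made up 6.71% (6.16 to 7.29), 3.47% (2.21 to 5.16) and 5.69% (4.46 to 7.13). Thus Klra7 was highest in HFD and lowest in CCL4, and Klra3 lowest in CON, with intervals that did not meet. These members are examples and not the only ones. Klra13-ps, at 3.66% (3.25 to 4.10) in CON, was above HFD at 1.51% (0.726 to 2.76) and CCL4 at 1.79% (1.12 to 2.69). The shares do depend on the naming of classes, and they were computed for the main classes only, with 116 HFD cells. The activating Klra4 and Klra8 took 50.9% (48.9 to 52.9) of Ly49 UMIs in CON, 40.4% (34.0 to 47.2) in HFD and 53.5% (47.8 to 59.0) in CCL4.

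Klre1 was detected in 83.2%, 49.1% and 38.1% of NK-like cells in CON, HFD and CCL4, against 0.988%, 0.204% and 0.0995% of hepatocyte-like cells. Klrd1 was detected in 77.9%, 54.3% and 45.9%, against 1.13%, 0.407% and 0.355%, and Klra4 in 45.0%, 27.6% and 17.3%, against 0.262%, 0.0157% and 0.0284%. Shares were highest in CON in both classes, and those of NK-like cells were far above the hepatocyte-like background in each library.

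A UMI of any Ly49 gene was found in 86.3% of NK-like cells in CON (83.1 to 89.0, exact Clopper-Pearson interval), 71.6% (62.4 to 79.5) in HFD and 48.8% in CCL4. After thinning each cell to 1000 UMIs the shares were 72.3%, 49.3% and 31.0%. The HFD share depended on the naming of classes. It was 25.8% at resolution 0.5, with CCL4 at 25.2%, and 26.9% with classes from transcripts, with CCL4 at 29.7%. With 7 T cell markers it ran from 14.0% to 49.3%. The combinations that gave an HFD NK-like class of 340 to 523 cells had 14.0% to 19.8%, below CCL4. The order of HFD and CCL4 is therefore not settled. Thinned shares in hepatocyte-like cells were 0.245%, 0.0812% and 0.0621%. Thinning evens out depth but not hepatocyte RNA within a cell, so these shares move with the scaling described for the levels. At least 3 of 11 Ly49 genes were seen in 27.8% of NK-like cells in CON, 15.5% in HFD and 2.67% in CCL4.

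Pairs of receptors in 1 cell were set against the product of their separate shares. The pairs given were chosen after their values were seen and are a description, since deeper cells raise every pair. Of 553 NK-like cells in CON, 249 held Klra4, 227 held Klra8 and 142 held both, where the product gives 102. In HFD both were in 10 cells (product 5.79) and in CCL4 in 16 (product 9.53). Klra4 and Klra8 are close relatives, and the part of reads given to the wrong gene in these pairs was not tested. In CON, 40 cells held Klra4 with Klrc1, where the product gives 73.4, whereas in HFD 4 cells did (product 4.14) and in CCL4 5 (product 8.67).

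T-like cells were far from uniform. Sub-clusters are given by library and number, with their leading genes and no subset name. In CON, all members together ranged from 37.6 CPM (18.8 to 67.3) in sub-cluster 12 (Lef1, Tcf7, Cd4 at 133 CPM) to 3756 CPM (3563 to 3956) in sub-cluster 9 (Havcr2, Pdcd1, Lag3). Sub-cluster 6 of CON (Cd160, Cd8a, Gzmb) had 2935 CPM. In HFD the range was 82.6 CPM (64.3 to 105) in sub-cluster 5 (Lef1, Ccr7) to 838 CPM (762 to 919.9) in sub-cluster 1 (Trgc2, Pdcd1). In CCL4 it was 86.5 CPM (68.6 to 108) in sub-cluster 1 (Dapl1, Lef1) to 665 CPM (543 to 807) in sub-cluster 10 (Pclaf, Top2a). Sub-cluster 10 of CCL4 held 56 cells, with 6 NK cell markers and 10 T cell markers raised and Ncr1 at 38.7 CPM. Whether it held NK cells beside T cells was not tested. Lef1, a transcription factor of T cells that have not met antigen, was among the leading genes of the lowest sub-cluster in each library. Low levels were not particular to Lef1, and Lef1 did not always go with low levels. With Lef1 among their leading genes, HFD sub-cluster 2 had 612 CPM (552 to 678) and CCL4 sub-cluster 0 had 476 CPM (428 to 529). Without Lef1 among their leading genes, CCL4 sub-cluster 7 (Areg, Cd4) had 88.3 CPM (57.7 to 129) and HFD sub-cluster 0 (Il17a) 109 CPM (84.8 to 138). In CON, sub-cluster 8 (Dapl1, Lef1) had 216 CPM (184 to 253) and sub-cluster 3 (Foxp3) 150 CPM (103 to 211).

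**Figure D5:**
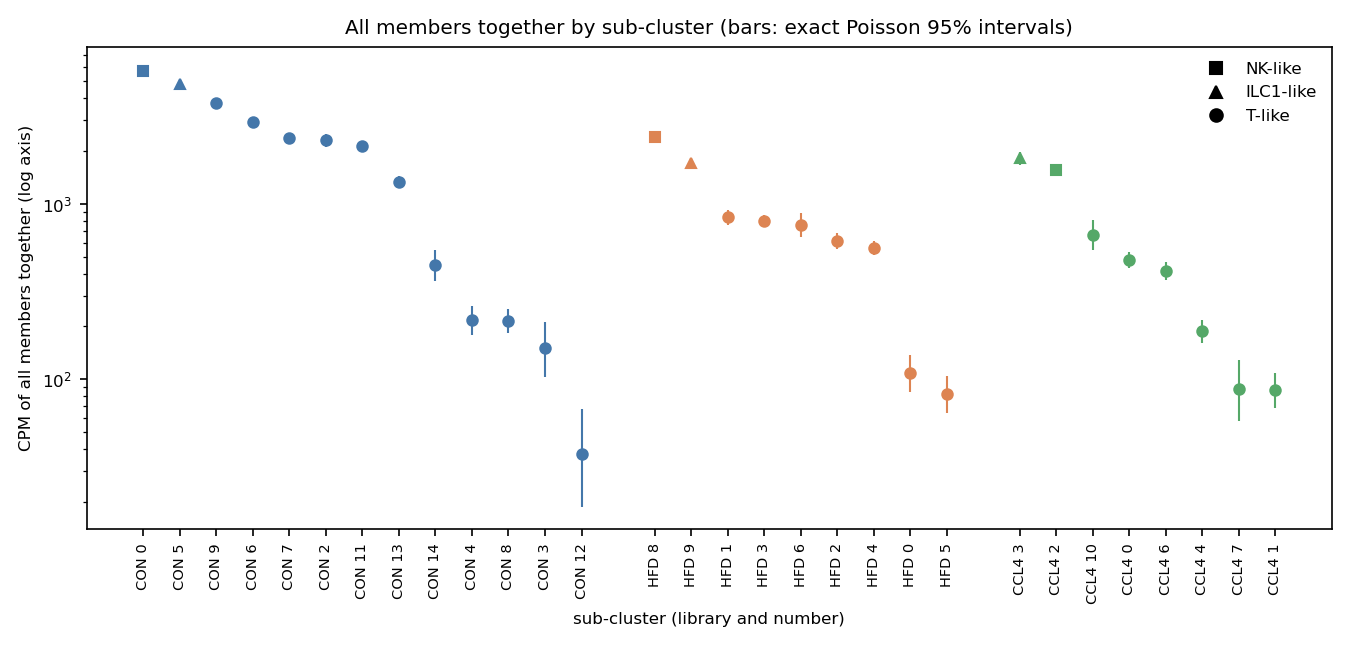
CPM of all members together (log axis) in each NK-like (square), ILC1-like (triangle) and T-like (circle) sub-cluster, by library, with exact Poisson 95% intervals. T-like sub-clusters span 37.6 to 3756 CPM in CON, 82.6 to 838 CPM in HFD and 86.5 to 665 CPM in CCL4.

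Single members had their own places among T-like cells. Klrh1, at 0.740 CPM in NK-like cells of CON, reached 179 CPM (139 to 228) in CON sub-cluster 9, where 26.0% of cells held it against 0.193% of B cell-like and 0 of 4959 hepatocyte-like cells in CON, and 53.1 CPM (35.3 to 76.7) in HFD sub-cluster 1. In CCL4 Klrh1 had 0 UMIs in 1702 T-like cells, which allows up to 3 counts. Klra5 reached 144 CPM (105 to 194) and Klra6 78.8 CPM (50.5 to 117) in CON sub-cluster 6, both above their NK-like levels. Klra1 (197 CPM) and Klra7 (213 CPM) were also high there. Klrb1b was at 124 CPM (82.3 to 179) in CON sub-cluster 14, led by Il17a, and Klrg1 at 123 CPM (83.8 to 175) in CON sub-cluster 2, led by S1pr5 and Cx3cr1. In sub-cluster 8 of CON, led by Dapl1 and Lef1, Klrd1 stood at 195 CPM (164 to 229) while Klre1 and Klrk1 were at 4.08 and 1.36 CPM.

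Klra2, Klra17 and Klrd1 were also found in myeloid classes. Klra2, which encodes the inhibitory Ly49B, was at 158 CPM (137 to 181) in monocyte/macrophage-like cells of CON, 46.4 CPM (40.1 to 53.5) in HFD and 85.4 CPM (64.8 to 110.3) in CCL4, and had 0 UMIs in NK-like cells of every library. Most of that class came from a cluster led by Vcan and F13a1 in CON, from clusters led by Ear2 and by Gm9733 in HFD and from the latter in CCL4, so these values are not compared. In CON, 46.2% of the class held a Klra2 UMI at a median depth of 3970 UMIs, against 0.101% of hepatocyte-like cells at 3801 and 0 of 1038 B cell-like cells at 1948. Klra17, the Ly49Q receptor of plasmacytoid dendritic cells, was at 127 CPM (104 to 154), 30.9 CPM (13.3 to 60.9) and 37.4 CPM (22.2 to 59.1) in that class, and at 0 UMIs in NK-like cells. This class too came from different clusters, 1 holding 189 of 195 CON cells and the other 96 of 97 HFD and all 197 CCL4 cells, and its marker Siglech was at 1509, 707 and 812 CPM, so the values are not compared. Klrd1 was at 279, 251 and 235 CPM in plasmacytoid dendritic cell-like cells and at 72.9, 193 and 208 CPM in myeloid progenitor-like cells.

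The remaining members were rare. Klra14-ps reached 15.5 CPM (21 UMIs) in NK-like cells of CON, Klrc3, which encodes NKG2E, 6.66 CPM, Klrb1 3.70 CPM and Klra10 2.96 CPM. Klri1, a partner of Klre1, had 16 UMIs in all cells, Klrg2 18 and Klra11-ps 2.

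Genes that act with the receptors were counted from lists. Of 13 adaptor and signalling genes compared in NK-like cells of HFD, 2 were past 2-fold lower and 0 higher. Of 14 in CCL4, 11 were lower and 0 higher. Zap70 went the other way, at 47.3 CPM in CON and 95.6 CPM in CCL4, a ratio of 2.02 (1.43 to 2.86). It was not counted as higher because the 2-fold rule adds a constant to both levels. Tyrobp (DAP12), the adaptor of activating Ly49 receptors, was at 1561, 1003 and 566 CPM, and Hcst (DAP10), the adaptor of NKG2D, at 320.3, 257 and 173 CPM. Of 12 transcription factors of NK cells, 6 were lower in HFD and 11 in CCL4, with 0 higher. Of 9 neighbours of the gene complex and other NK receptors, 4 were lower in HFD and 9 in CCL4, with 0 higher. Every count of lower genes here is scaled to all UMIs and takes genes at 50 CPM in 1 library or more. Each is read against the 20.7% and 37.7% of all genes. Of the lower genes in HFD, Inpp5d, Syk, Tcf7, Prdm1, Cd244a and Il12rb2 entered through CON alone, which set their direction. In CCL4 most lower adaptor and signalling genes and transcription factors did too, with Cd244a, Slamf7, Cd226 and Il12rb2. At 50 CPM or more in both libraries, Tyrobp, Fcer1g, Fyn, Eomes, Id2, Zeb2 and Ets1 were still lower in CCL4 over all UMIs. So were Runx3, Ncr1, Cd69, Il2rb, Il18r1 and Il18rap. Ratios of the listed genes were not computed under the lymphoid scaling, which moves every CCL4 ratio upward.

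Ligands were read in hepatocyte-like cells, where 5.38% of 2639 genes were past 2-fold higher and 7.62% lower in HFD, and 7.55% and 7.96% of 2662 in CCL4. None of 5 MHC class I genes compared was past 2-fold in either library. H2-K1 was at 1278, 1469 and 1479.5 CPM and H2-Q10 at 1223, 1706 and 1577 CPM. Clec2d, whose product is the ligand of NKR-P1B, was at 22.6 CPM in CON, 72.0 CPM in HFD and 43.2 CPM in CCL4, a ratio of 3.18 (2.89 to 3.51) for HFD. Cdh1, which encodes the KLRG1 ligand E-cadherin, was at 52.9, 32.7 and 13.2 CPM, a ratio of 0.250 (0.219 to 0.285) for CCL4. Clec2d reached 50 CPM in HFD alone and Cdh1 in CON alone, so the filter set their directions. Of 9 NKG2D ligand symbols, 5 were found and none reached 50 CPM. Most hepatocyte-like cells came from clusters led by Mt1 and Serpina3n in CON, by Cyp1a2 and Fabp5 in HFD, and by G6pc and Hamp2 in CCL4. Their Alb was at 16947, 25838 and 55868 CPM. The ligand ratios are therefore a description, and the part of class makeup in them was not tested.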

How the data were processed

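Single-cell 3′ libraries of mouse liver were analysed, 1 per condition. The deposited values are whole UMI counts for each gene in each barcode, with no normalization. Per the file headers they were made with Cell Ranger 7.2.0. The labels name GRCm39 and the methods mm10, so no coordinate is given from the build used for counting. The coordinates printed are those of the promoter stretches in GRCm38.p6. The members and lists were chosen with earlier results of these data known.

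Barcodes below 500 UMIs or 200 genes, or above 30% mitochondrial UMIs, were dropped. Scrublet marked 2, 1 and 3 barcodes, too few to have worked, and these were left out. Clustering (scanpy 1.11.5, 2000 variable genes, 30 components, resolution 1.0) left out all Klr genes. A marker was raised where at least 10% of cells held it at 1.5 times the mean of the other clusters. Members with at least 20 CPM in NK-like cells or a T-like sub-cluster are named with their values. Klra2 and Klra17, below that limit, were singled out after their values were seen. The other members below it are listed as rare, with a level or a UMI count only.

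The naming of classes departed from the original plan and was revised 5 times after the data had been seen, with Klr levels of sub-clusters in view. The reference became the mean over other clusters. NK and T cells were clustered again within each library, because joint clustering left 3 HFD NK-like cells. Sub-clusters were named by counts of raised markers (T-like from 5 of 10, otherwise NK-like from 7 of 12, and ILC1-like where 4 of 7 ILC1 markers were raised as well). Sub-clusters led by erythroid, hepatocyte or B cell genes were set apart as mixtures after their Klr UMIs had been seen. Lastly, the minimum for T-like cells was lowered from 7 to 5 after the effect of the alternatives had been seen. The steadier results with 5 follow in part from that choice.

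No test across samples was made. Ratios carry exact conditional 95% intervals. The 2-fold rule was tried on simulated counts drawn from the profile of all CON cells, not of NK-like cells. It recovered 100% of 100 genes raised and 100% of 100 genes lowered 4-fold and called 0.330% of 3031 unchanged genes. The altered genes were well expressed and the sums larger than the 276135 UMIs of HFD NK-like cells. These rates therefore do not describe the NK-like comparisons. A count of 0 allows up to 3 counts.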

Additional observations from a re-analysis of the deposited data

How the results depend on the processing

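With 1 library per condition there is no replicate to leave out. No paired analysis was possible because each condition has 1 library and no result comes from a test. Ratios of all members are given as HFD against CON and CCL4 against CON in NK-like cells, then NK-like against T-like cells, and shares are thinned Ly49 shares of NK-like cells. Every ratio of all members in NK-like cells stayed below 1 and every NK-like to T-like ratio above 1, under each alternative that gave a value. The lowest NK-like to T-like ratio, 1.13 in HFD, rested on 3 NK-like cells only.

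A mitochondrial limit of 20% gave 0.374 for HFD and 4.33 for NK-like against T-like in HFD. At least 2000 UMIs left no HFD NK-like cell, and gave 0.254 for CCL4, 3.71 and 4.76 for CON and CCL4 against T-like, and a CCL4 share of 20.1%. Leaving out the top 8% of doublet scores gave 0.302 and 6.28 for CCL4. Resolution 0.5 gave 0.353 and 4.00 for HFD and shares of 25.8% (HFD) and 25.2% (CCL4). Klr genes in clustering gave 6.32 (CCL4), and clustering each library alone 4.36 (CON). Classes from transcripts gave 0.378 and 0.325, then 2.10, 2.71 and 3.86, with shares of 58.0% (CON) and 26.9% (HFD). Scaling without mitochondrial, ribosomal and top genes gave 0.458, 0.319 and, for CON against T-like, 3.89. Shares thinned to 1500 UMIs were 80.4%, 60.5% and 41.1%, and unthinned 86.3%, 71.6% and 48.8%.

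The rest were chosen after the data had been seen. With the earlier minimum of 7 T cell markers, the main setting was identical, but it changed HFD together with a second choice. With the mitochondrial limit of 20% it gave 0.195, 2.62 and a share of 14.0%, without top doublet scores 0.248, 3.06 and 17.6%, at resolution 2.0 0.265, 3.18 and 19.8%, with Klr genes kept 0.215, 2.96 and 16.5%, and with 3000 variable genes 0.217, 2.73 and 15.7%, with CON at 3.96. The HFD ratio therefore ran from 0.195 to 0.418 with 7 markers. With at least 2000 UMIs it gave a CON share of 66.1% and 3.65. With resolution 0.5 and separate clustering it repeated the values given above. For CCL4 with 7 markers, the ratio to CON ran from 0.259 to 0.302 and the ratio to T-like cells from 4.76 to 6.28. The CCL4 share then ran from 20.1% to 31.5%. Joint re-clustering of the pool left no CCL4 NK-like cell and gave 0.380, 4.18 and 26.6% for HFD and 4.37 for CON. Joint clustering alone, with 3 HFD cells, gave 0.162, 1.13 and 0%, and 0.326 and 25.8% for CCL4 and 2.72 for CON. NK-like and ILC1-like cells together gave 0.365 and 0.306, ratios to T-like of 3.84 (CON) and 3.89 (HFD), and shares of 46.2%, 25.0% and 25.6%. Scaling to lymphoid genes gave 0.683 and 0.657, 3 and 2 lower members in place of 13 and 18 (6.68% and 4.20% of all genes were lower), and 7.10 (CCL4 against T-like). With at least 50 CPM in both libraries, 12 and 10 members were lower. Without T-like sub-clusters led by NK cell markers the HFD ratio to T-like was 5.59.

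Single members turned direction. For HFD, Klrh1 was at 1.78 (0.0226 to 139) at resolution 0.5 and 2.27 (0.118 to 134) with 7 markers and 3000 genes. Klra5 was at 1.07 (0.411 to 2.60) at resolution 0.5 and 1.05 (0.412 to 2.49) after joint re-clustering. Klrb1f was at 1.09 (0.0276 to 6.17) with joint clustering alone. Each of these intervals spans 1. In the main setting Klrh1 rested on 0 UMIs in HFD and 1 in CON, and Klra5 on 1 and 15. For CCL4 under lymphoid scaling, Klrc1 was at 1.01, Klra5 at 1.10, Klra3 at 1.13 and Klra6 at 1.55 (0.646 over all UMIs, on 3 UMIs). For HFD, that scaling turned Klra7 (1.13), Klrg1 (1.15), Klrb1a (1.33) and Klra1 (1.60) above 1. The cause was not tested. With classes from transcripts, Klra6 had no CON UMI and gave no CCL4 ratio. The 116 HFD NK-like cells limit the HFD values.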
